A study of Mus musculus with 4 samples.

Results

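The SLAM family (signalling lymphocyte activation molecules) is a group of immunoglobulin-type surface proteins of blood cells, here Cd48, Cd244, Slamf1, Ly9, Cd84, Slamf6, Slamf7, Slamf8 and Slamf9. All probe sets that the array's annotation assigns to 1 of these 9 genes were taken, without regard to their values. This gave 15 of the 45037 probe sets tested, 1 each for 5 genes and 2 or 3 each for Cd244, Slamf1, Cd84 and Slamf6. The annotation lists Cd244 under its newer symbol Cd244a, which is used below.

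RNA from 2000 sorted bone marrow cells per sample was hybridised to mouse MOE430_2 arrays, 2 of CLP_RAGhigh and 2 of CLP_RAGlow. Both are fractions of a marrow progenitor called CLP (common lymphoid progenitor), from which B cells, T cells and natural killer cells arise. All samples came from C57Bl6 mice 8 to 12 weeks old, with no treatment given in the labels, and the fractions are described by high or low GFP. The labels call the replicates biological without naming animals, sorts or the GFP reporter, so a p-value here reflects the spread among the arrays alone, which may be technical. In sorted pools a higher share of positive cells and more RNA per cell cannot be told apart.

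Most SLAM receptors bind their own kind on a neighbouring cell. CD48, which is held in the membrane by a lipid anchor and has no signalling tail, is instead the ligand of CD244 and, in the mouse, of CD2. The tails of CD244, SLAMF1, LY9, CD84 and SLAMF6 carry tyrosine motifs that recruit the small adaptors SAP (gene Sh2d1a) and EAT-2. Through SAP these motifs bring in the kinase FYN, or else they recruit inhibitory phosphatases. SLAMF7 signals through EAT-2. In mouse bone marrow the family is known as a sorting code, in which stem cells carry CD150 (the product of Slamf1) without CD48, while more restricted progenitors gain CD48 and CD244 and lose CD150.

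Values are log2 of the deposited intensities, and differences are CLP_RAGhigh minus CLP_RAGlow. Rag1, a subunit of the recombinase after which the groups are named, read 10.92 and 10.62 on the CLP_RAGhigh arrays against 7.72 and 8.53 on the CLP_RAGlow arrays. Of the CLP markers, Il7r read 10.24 to 11.81, Flt3 10.65 to 11.17, Kit 7.42 to 8.55 and Dntt 13.39 to 13.50, and Ly6a was not analysed here. Median linear intensities were 14.5 to 14.8. The ratio of the 3' to the 5' control probe set for Actb was 16.2 and 9.62 on the CLP_RAGhigh arrays and 13.5 and 24.5 on the CLP_RAGlow arrays. For Gapdh it was 15.7 and 10.6 against 14.0 and 20.0. The amplified RNA was thus biased to transcript ends, to an extent that differed by array. The readings of a probe set depend on where it lies, and the part of this bias in the differences was not tested. The number of arrays limits the precision throughout.

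No SLAM family gene was distinguishable between the fractions. With limma, 0 of the 15 probe sets had an adjusted p under 0.05, where the background was 0% of all probe sets in either direction. By limma's unadjusted p under 0.05 the count was also 0 of 15, against 4.57% of all probe sets. The median difference of the 15 was -0.00029, and over all probe sets it was 0.0084. In all 15 the difference between the group means was no larger than the wider gap between replicates, which held for 80.7% of all probe sets. The CLP_RAGhigh pair stood wholly above the CLP_RAGlow pair for 0 of the 15, where the background was 15.3%, and wholly below it for 3 of the 15, where it was 15%. With 2 arrays against 2, an exact permutation test of a single probe set cannot give a two-sided p under 0.333.

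**Figure D1:**
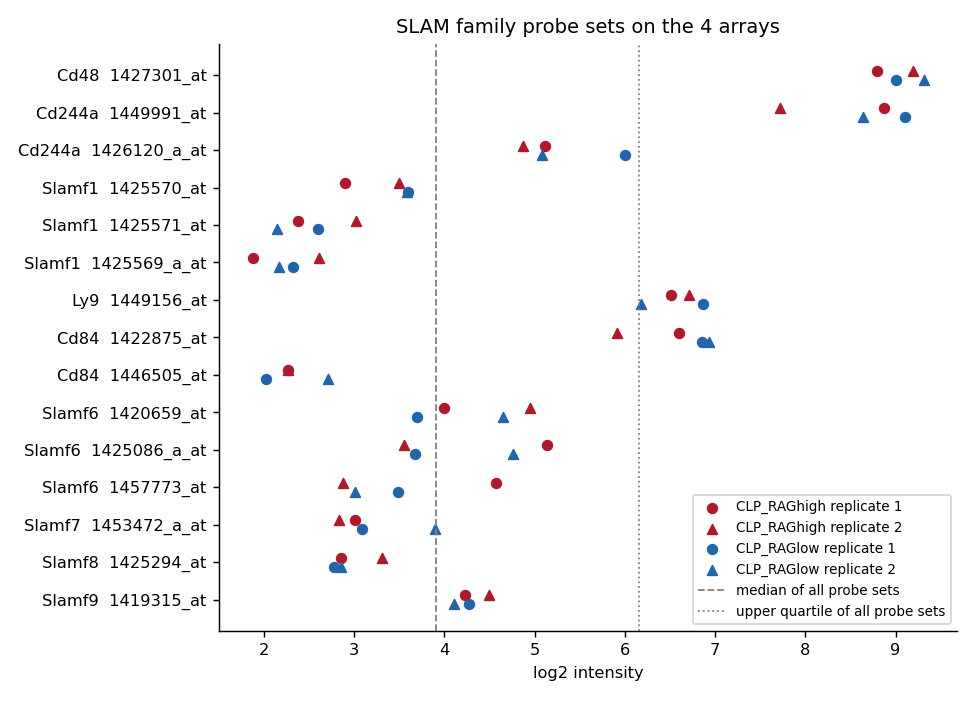
Log2 intensity (x axis) of the 15 SLAM family probe sets (y axis) on each of the 4 arrays, with CLP_RAGhigh in red, CLP_RAGlow in blue, circles for replicate 1 and triangles for replicate 2. The lines mark the median (3.90) and the upper quartile (6.16) of the mean values of all probe sets, and red and blue symbols intermix or touch for all but 3 probe sets, those of Slamf1 (1425570_at), Cd84 (1422875_at) and Slamf7.

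Signal differed by gene. Probes bind with different strength, so an intensity places a probe set relative to the array and does not rank the genes by their amount of mRNA. Cd48, Cd244a, Ly9 and Cd84 each had a probe set above the upper quartile of all probe sets, a mean log2 value of 6.16. Slamf6 and Slamf9 had their brightest probe set between the median of 3.90 and that quartile. Every probe set of Slamf1, Slamf7 and Slamf8 lay below the median, where a low transcript level and background cannot be separated.

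Cd48, the ligand, gave the brightest reading. It was 8.80 and 9.20 on the CLP_RAGhigh arrays and 9.004 and 9.31 on the CLP_RAGlow arrays. The groups interleave, and both fractions had strong Cd48 signal. The means were 8.997 ± 0.28 and 9.16 ± 0.22 (SD, n = 2 each), a difference of -0.16 ± 0.27 (SE) with a limma adjusted p of 1. Its 95% interval, not adjusted for the number of probe sets, ran from 0.545-fold to 1.46-fold.

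Cd244a encodes the receptor of CD48, known from natural killer cells as 2B4. Its brighter probe set (1449991_at) read 8.87 and 7.72 in CLP_RAGhigh and 9.10 and 8.64 in CLP_RAGlow. The dimmer one (1426120_a_at) read 5.12 and 4.87 against 6.01 and 5.08. Both probe sets placed the arrays in the same order, with CLP_RAGlow replicate 1 highest and CLP_RAGhigh replicate 2 lowest, and in both the groups overlapped. The differences were -0.57 ± 0.47 and -0.55 ± 0.44 (SE), each with a limma adjusted p of 1, and that of the brighter probe set was 0.0052 without CLP_RAGhigh replicate 2. The 95% interval of the brighter probe set, 0.288-fold to 1.57-fold, still includes a difference of more than 2-fold.

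Cd2, the other partner of CD48 and a T-cell and natural killer cell adhesion receptor, read 2.61 and 3.17 against 2.50 and 2.71, below the median in both fractions. Of the 6 genes of the CD48 and CD2 partner list, Cd48 and Cd244a included, 0 passed with limma over all genes (background 0% in either direction). By limma's unadjusted p under 0.05 the count was also 0 (background 5.29% of genes). The list's median difference was -0.20, and it was -0.45 without CLP_RAGhigh replicate 1 and -0.00035 without CLP_RAGhigh replicate 2. Pstpip1, a cytoskeletal protein that binds the CD2 tail, was lower on both CLP_RAGhigh arrays, with a difference of -0.46 ± 0.36 and a limma adjusted p of 0.998.

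Among the self-binding receptors, Cd84 had the largest difference between group means of all 15 probe sets. Its bright probe set (1422875_at) read 6.60 and 5.92 in CLP_RAGhigh and 6.86 and 6.94 in CLP_RAGlow. Both CLP_RAGhigh values were the lower ones, while the gap between the CLP_RAGhigh replicates, 0.69, exceeded the difference of -0.64 ± 0.40 (SE, limma adjusted p = 1). Without CLP_RAGhigh replicate 2 the difference was -0.30. The second Cd84 probe set (1446505_at) was near the bottom of the range, at 2.26 on both CLP_RAGhigh arrays and 2.03 and 2.71 on the CLP_RAGlow arrays, and it did not separate the groups.

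Ly9 encodes CD229, a receptor of lymphocytes. Its single probe set read 6.51 and 6.71 in CLP_RAGhigh and 6.87 and 6.18 in CLP_RAGlow. Both CLP_RAGhigh values fell between the CLP_RAGlow values, and the difference was 0.09 ± 0.40 (SE, limma adjusted p = 1). The Ly9 signal was thus above the upper quartile on every array, with an interval of the difference from 0.517-fold to 2.18-fold.

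Slamf6 encodes Ly108, a receptor studied mainly in T cells and in B-cell tolerance. Its 3 probe sets disagreed on which arrays were high. The probe set 1420659_at read 3.99 and 4.95 in CLP_RAGhigh against 3.70 and 4.65 in CLP_RAGlow, with replicate 2 higher in each group. The probe set 1425086_a_at read 5.13 and 3.55 against 3.67 and 4.76, with replicate 1 high in one group and replicate 2 in the other. The probe set 1457773_at read 4.57 and 2.88 against 3.49 and 3.01. Its CLP_RAGhigh replicates were 1.69 apart, the widest gap within a group in the family. The differences of 0.30, 0.13 and 0.47 had standard errors of 0.51, 0.68 and 0.61, and all 3 changed sign when 1 array was left out.

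Slamf1 encodes CD150, the stem-cell marker of the sorting code. It had 3 probe sets, all dim. The brightest of them (1425570_at) read 2.90 and 3.50 in CLP_RAGhigh and 3.60 and 3.59 in CLP_RAGlow, with both CLP_RAGhigh values below. The probe set 1425571_at read 2.37 and 3.02 against 2.60 and 2.15, and 1425569_a_at read 1.88 and 2.61 against 2.32 and 2.17. These overlap, so the 3 probe sets of Slamf1 did not go one way. The first had a difference of -0.39 ± 0.29 (SE, limma adjusted p = 1), which was -0.09 after 32 was added to the linear intensities before log2, a step that reduces differences close to background.

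Slamf7 encodes CS1 (CRACC), a receptor of natural killer and plasma cells that signals through EAT-2. It read 3.01 and 2.84 in CLP_RAGhigh against 3.09 and 3.89 in CLP_RAGlow. Both CLP_RAGhigh values were lower, all 4 lay below the median, and CLP_RAGlow replicate 2 stood above the rest. The difference of -0.57 ± 0.33 (SE, limma adjusted p = 1) was -0.14 with the offset of 32.

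Slamf8 and Slamf9 have short tails without the SAP-binding motif, and Slamf8 is known from activated macrophages. Slamf8 read 2.85 and 3.31 against 2.77 and 2.85, dim on every array. Slamf9 read 4.23 and 4.50 against 4.28 and 4.11, slightly above the median of all probe sets. The Slamf8 groups met in a tie at 2.85 and the Slamf9 groups overlapped, with differences of 0.27 ± 0.23 and 0.17 ± 0.29 (SE, limma adjusted p = 1 each).

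**Figure D2:**
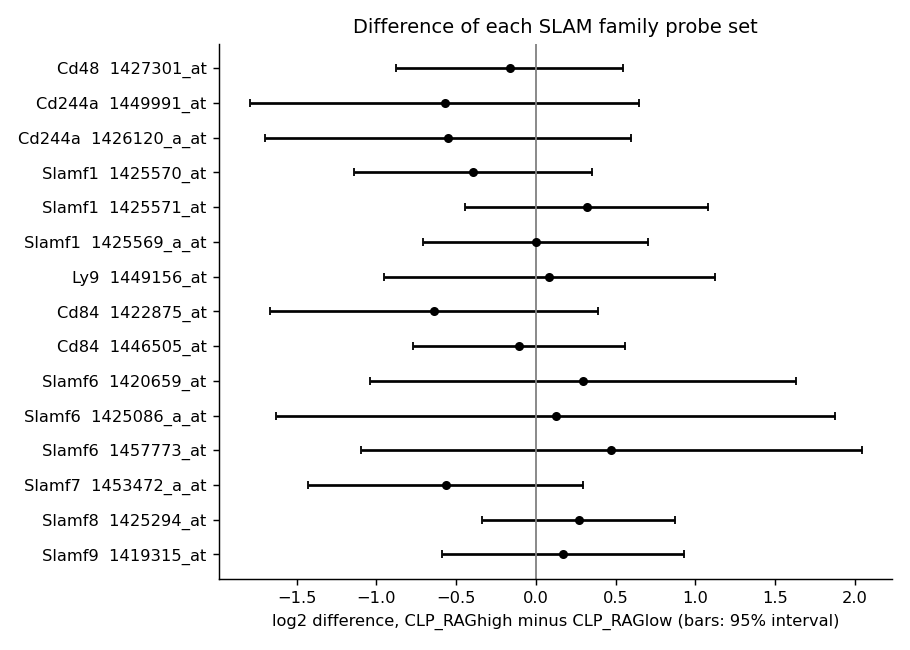
Log2 difference between CLP_RAGhigh and CLP_RAGlow (x axis) for each SLAM family probe set (y axis), with the 95% interval from limma as bars. The points run from -0.64 (Cd84) to 0.47 (Slamf6), and every interval crosses 0.

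The widths of the intervals say how much difference the arrays could have missed. For 5 of the 15 probe sets, those of Cd48, Slamf8 and Slamf9, 1 of Slamf1 and 1 of Cd84, the 95% interval lay inside a factor of 2 in either direction, against 51.9% of all probe sets. For the other 10 the interval included a difference of 2-fold or more. The widest interval, of the Slamf6 probe set 1425086_a_at, ran from 0.323-fold to 3.68-fold. An adjusted p of 1 therefore does not show equal expression. On the dim probe sets a narrow interval describes a signal that cannot be separated from background and does not bound the change in mRNA.

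The genes sit together on chromosome 1 in the RefSeq annotation of the mouse genome. Cd244a, Ly9, Slamf7, Cd48, Slamf1, Cd84 and Slamf6 follow each other with 1 other protein-coding entry among them. Slamf9 comes 14 protein-coding genes after Slamf6, and Slamf8 comes 4 genes after Slamf9. With the brightest probe set of each gene, the CLP_RAGhigh mean was the lower one for 5 of the 7 clustered genes and the higher one for 2 (Ly9 and Slamf6) and for both outlying genes. Over all genes it was the lower one for 49.4%.

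Of 25 measured neighbours in the fixed list, 0 passed with limma over all genes (background 0% in either direction). The difference was below 0 for 11 (background 49.4% of genes) and above 0 for 14, with a median of 0.02. Among the 14 was Kcnj10, at 2.2e-08. Of these 25, 1 had an unadjusted p under 0.05 (background 5.29% of genes), Aim2, a sensor of cytosolic DNA. It read 5.87 and 5.42 against 3.73 and 4.84, a difference of 1.36 ± 0.46 (SE, limma adjusted p = 0.886). The flanking genes F11r, an adhesion molecule of cell junctions, and Vangl2, a planar polarity protein, had differences of -0.44 ± 0.60 and -0.65 ± 0.55, within their replicate spread.

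**Figure D3:**
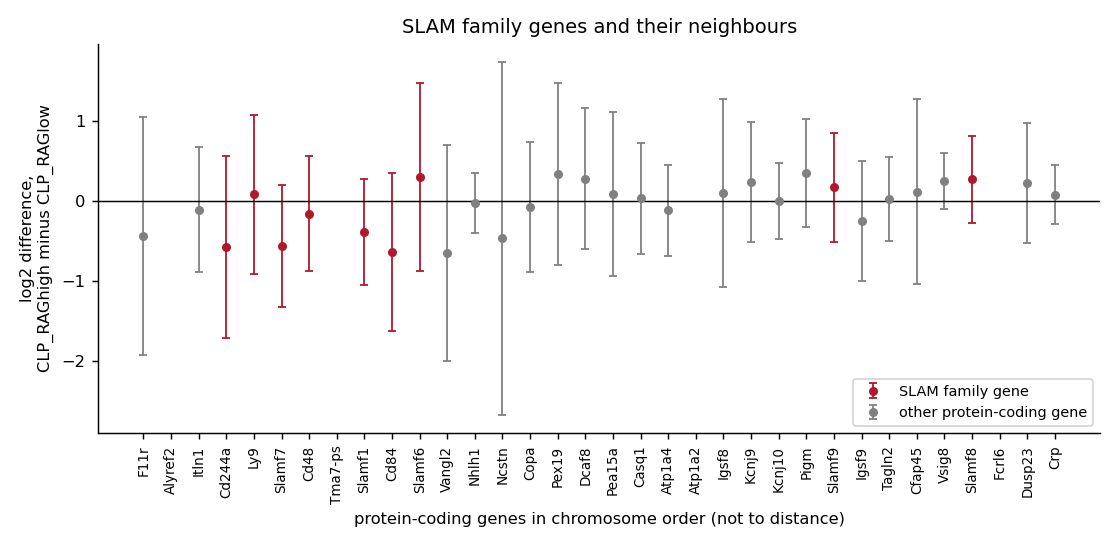
Log2 difference between CLP_RAGhigh and CLP_RAGlow (y axis, 95% interval as bars, fit per gene) for the protein-coding genes around the SLAM family in their order along chromosome 1 (x axis, evenly spaced and not to distance), with family genes in red. Gaps are genes with no value here, and the intervals of all genes shown cross 0.

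Of the signalling partners, 15 of 19 listed genes were measured, and the other 4 were not analysed here. With limma 0 of the 15 passed over all genes (background 0%), and 2 had an unadjusted p under 0.05 (background 5.29% of genes), both higher in CLP_RAGhigh. The groups did not overlap for 9 of the 15, with CLP_RAGhigh above for 5 (background 15.4% of genes) and below for 4 (background 15.8%). The list's median difference was 0.05, and over all genes it was 0.0028.

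Sh2d1a, which encodes the adaptor SAP, was at the floor in both fractions, at 2.07 and 2.12 against 1.81 and 1.86. Fyn, the kinase that SAP brings to the receptors, was bright, at 8.03 and 7.51 against 7.59 and 7.34, with overlapping groups. That was the brighter of 2 Fyn probe sets, with a difference of 0.31 ± 0.36 (SE), and the other differed by 0.85. The receptors' inhibitory partners were bright as well. Inpp5d, the lipid phosphatase SHIP-1, read 11.79 and 11.15 in CLP_RAGhigh against 10.44 and 10.88 in CLP_RAGlow. Both CLP_RAGhigh values were higher, and its difference of 0.81 ± 0.27 (SE) had an unadjusted limma p of 0.024 and an adjusted p of 0.869. Ptpn6 and Ptpn11, the phosphatases SHP-1 and SHP-2, differed by -0.06 ± 0.28 and -0.15 ± 0.25.

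Downstream, Plcg2, a phospholipase of B-cell signalling, read 10.88 and 10.80 against 10.17 and 10.49. The CLP_RAGhigh values were the higher ones, with a difference of 0.51 ± 0.19 (SE, limma adjusted p = 0.923). Prkcq, the protein kinase C theta of T-cell signalling, read 4.43 and 4.73 against 5.64 and 5.13, the other way, with a difference of -0.80 ± 0.35 (limma adjusted p = 0.943). Vav1, Plcg1 and Csk had overlapping groups.

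**Figure D4:**
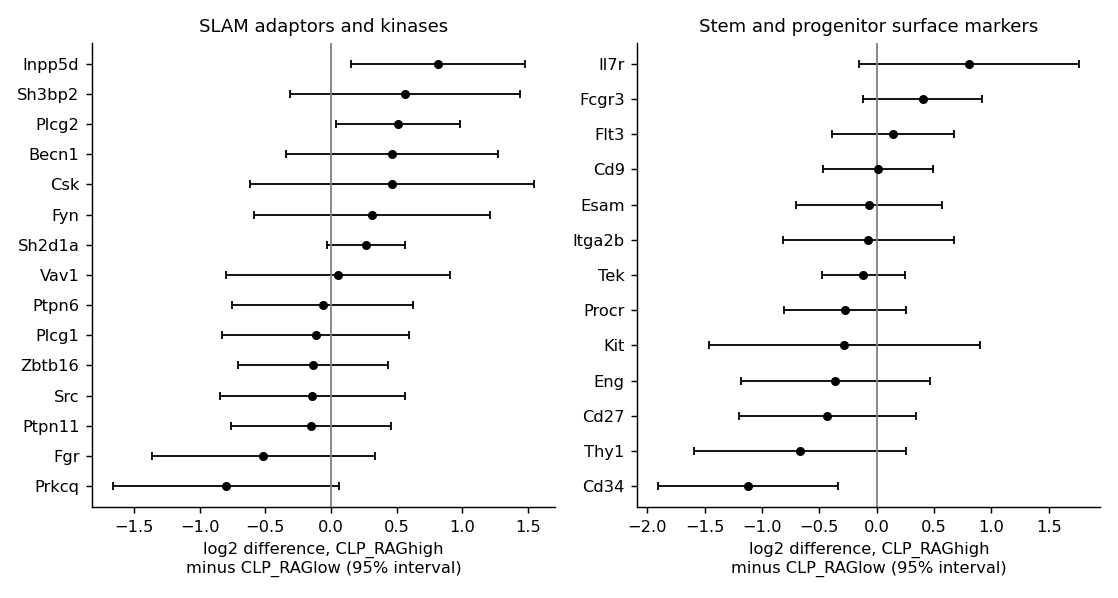
Log2 difference between CLP_RAGhigh and CLP_RAGlow (x axis, 95% interval as bars, fit per gene) for the measured SLAM adaptors and kinases (left) and the measured stem and progenitor surface markers (right). The unadjusted intervals of Inpp5d, Plcg2 and Cd34 do not include 0, and none of these genes passed over all genes.

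The SLAM code is read together with other surface markers of stem and progenitor cells. Of 16 such genes 13 were measured, with a difference below 0 for 9 (background 49.4% of genes) and above 0 for 4. With limma 0 passed over all genes (background 0%), and 1, Cd34, had an unadjusted p under 0.05 (background 5.29% of genes). The CLP_RAGhigh pair stood wholly above for 2 of the 13 (background 15.4% of genes) and wholly below for 5 (background 15.8%). Cd34 read 8.72 and 9.48 in CLP_RAGhigh against 10.33 and 10.11 in CLP_RAGlow, a difference of -1.12 ± 0.32 (SE, limma adjusted p = 0.813). Il7r, the interleukin-7 receptor chain, differed by 0.81 ± 0.39, Fcgr3, an antibody receptor that was dim, by 0.40 ± 0.21, and Thy1 by -0.67 ± 0.37, with no overlap between the groups in each.

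Other cells that carry these receptors were checked by their markers. Macrophage and monocyte genes (8 measured, 3 of them dim) had a summed linear intensity of 444 and 583 in CLP_RAGhigh and 1092 and 1035 in CLP_RAGlow, the same direction as the Cd84 and Cd244a means. The sum followed Csf1r, at 6.79 and 8.26 against 9.31 and 9.54 on its brightest probe set. The 3 Csf1r probe sets differed by -1.90 to -0.26. Lyz2, also bright, went the same way with overlapping groups, at 7.78 and 6.92 against 8.33 and 7.40, a difference of -0.51 ± 0.49 (SE). The list had 4 genes above and 4 below 0 (background 49.4% of genes below) and a median difference of -0.0033. Cd14, Ccr2 and Fcgr1 differed by -0.03, 0.07 and 0.12, and Adgre1, Itgam and Cd68 were dim. Plasmacytoid dendritic cell genes (6 measured, 0 dim) summed to 3084 and 4272 against 4724 and 6029, also in that direction. The difference was below 0 for 5 of them (background 49.4% of genes). Siglech went the other way, at 5.10 and 5.25 against 4.98 and 4.76. The part of either list in the Cd84 and Cd244a values was not tested. Natural killer genes (7 measured, 3 dim) summed to 944 and 912 against 697 and 834, with Ncr1 dim. Most of that sum lay in Nkg7, at 9.38 and 9.46 against 9.12 and 9.33, and Klrd1, at 7.76 and 7.23 against 6.43 and 7.10. The natural killer list had a difference below 0 for 2 genes (background 49.4% of genes) and a median of 0.11. T-lineage genes (7 measured, 4 dim) summed to 85.1 and 132 against 152 and 157. The T-lineage sum followed Cd28, at 2.06 and 4.78 against 6.36 and 6.25 on the brighter of its 2 probe sets. That probe set differed by -2.89 and the other by -0.88. Of the 7 genes, 5 had a difference above 0 and 2 below (background 49.4% of genes below), and the median was 0.11. Genes of plasma cells, which carry Slamf7 (5 measured, 2 dim), summed to 3071 and 3221 against 2307 and 2657. Much of the difference in that sum lay in Mzb1, at 9.32 and 9.49 against 6.91 and 7.43, while Xbp1 differed by -0.16, and their part in the Slamf7 values was not tested.

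B-lineage genes (9 measured, 1 dim) summed to 3582 and 3315 in CLP_RAGhigh and 528 and 661 in CLP_RAGlow. With limma 0 of the 9 passed over all genes (background 0% in either direction). By limma's unadjusted p under 0.05 there were 6 (background 5.29% of genes), all higher in CLP_RAGhigh. For 7 genes both CLP_RAGhigh values were above (background 15.4%), and the list's median difference was 2.05. Igll1 overlapped and Ms4a1 differed by -0.39. Granulocyte genes (8 measured) summed to 3846 and 3910 against 5056 and 2354. S100a8 read 9.62 and 9.60 on the CLP_RAGhigh arrays, 10.15 on CLP_RAGlow replicate 1 and only 3.81 on CLP_RAGlow replicate 2. That array had the highest Cd48 reading, 9.31 against 9.20 on CLP_RAGhigh replicate 2, and a relation was not tested. Megakaryocyte genes (5 measured, 3 dim) summed to 88.2 and 93.1 against 108 and 85.8, mast cell and basophil genes (5 measured, 3 dim) to 58.5 and 134 against 96.3 and 120, and erythroid genes (4 measured, 2 dim) to 167 and 112 against 84.3 and 54.1. The erythroid sum followed Klf1, a red-cell transcription factor, at 6.94 and 6.05 against 5.24 and 3.69.

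The profile of Cd48 over the 4 arrays was shared by many genes. After centring each gene on its own mean, the closest among 11508 genes above the median were Babam2, Egfl8 and Haus7, at root mean square distances of 0.0206, 0.0211 and 0.0227 log2 units. As 215 genes lay within 0.1, the likeness is a description of 4 arrays.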

How the data were processed

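The authors deposited 1 RMA expression intensity per probe set and array, per the series' design text. RMA corrects background, normalizes between arrays and summarises probes, and it does not separate dim signal from background. For its software and version, the sources used here give no entry. The deposited intensity values ran from 2.35 to 19893, a linear scale, so log2 was taken.

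Of 45101 rows, 64 control probe sets were left out. Of the 45037 others, 34945 were annotated to 1 gene, 932 to several and 9160 to none. All 45037 were fitted with limma 3.58.1 in R 4.3.3 (lmFit, eBayes with an intensity trend, 2 residual and 2.83 prior degrees of freedom), two-sided, with Benjamini-Hochberg adjustment and a threshold of 0.05. Gene lists used a fit per gene over 18193 genes, each by its probe set with the highest mean. Dim means a mean below 3.90. The fit was tested on simulated data. The arrays were not paired by replicate number in the main fit. The deviations of same-numbered arrays from their group means had a correlation of -0.039. With 2 arrays per group this cannot show whether they shared an animal or sort.

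Every family probe set is named, as are genes of the adaptor, partner and neighbour lists, the 4 genes of smallest p in the stem and progenitor list, and the 3 genes closest to the brightest member. The CLP markers and single genes of the other cell type lists were named as cell type checks, some after their values were seen. The members and lists were chosen with earlier results of these data known. Alternatives covered an offset, averaged or single probe sets, filters, trend, normalization, a block and each array left out. Figures used matplotlib 3.10.9.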

Additional observations from a re-analysis of the deposited data

How the results depend on the processing

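No SLAM probe set passed the threshold under any of the 12 alternatives (lowest limma adjusted p 0.598), the replicate block among them, and 14 of the 161 recomputed differences had the other sign, 13 of them with 1 array left out. The other was Slamf1 1425569_a_at, at 0.0049 with the offset of 32. With each array left out in turn, differences ran from -0.36 to 0.039 for Cd48, -1.15 to 0.0052 and -1.01 to -0.09 for Cd244a, -0.26 to 0.43 for Ly9, -0.98 to -0.30 and -0.45 to 0.24 for Cd84, -0.69 to -0.09 (1425570_at), -0.0016 to 0.64 (1425571_at) and -0.37 to 0.36 (1425569_a_at) for Slamf1, and -0.18 to 0.77 (1420659_at), -0.66 to 0.92 (1425086_a_at) and -0.37 to 1.32 (1457773_at) for Slamf6. The lone array of a group is then assumed to vary like the other group. The family's median was -0.0078 to -0.18 in these fits and -0.16 with 1 probe set per gene. With 1 array left out, the groups lay apart for 2 to 5 probe sets above and 5 to 7 below, since fewer arrays overlap less often. They lay apart for 1 above after a second quantile normalization and for 1 below without dim probe sets. The shares over all probe sets, 15.3% above and 15% below, are given for the main fit only. The counts under the other settings are therefore not read as a result about the family. Without 1 array, list medians ran from -0.064 to 0.24 for adaptors and kinases, -0.45 to -0.00035 for the CD48 and CD2 partners, -0.058 to 0.16 for locus neighbours, -0.12 to 0.14 for CLP markers, 1.69 to 2.31 for B-lineage, -0.12 to 0.34 for T-lineage, 0.090 to 0.15 for natural killer, -0.79 to -0.24 for plasmacytoid dendritic, -0.75 to 0.33 for mast cell, 0.46 to 0.76 for plasma cell and 0.080 to 0.32 for erythroid genes. The offset gave 1.05 for B-lineage, 0.035 for natural killer, 0.12 for plasma cell and 0.028 for erythroid genes. Without dim probe sets the medians were -0.28 for stem and progenitor, 0.39 for natural killer, -0.20 for megakaryocyte and 1.01 for erythroid genes, as fewer genes were left. Averaged probe sets gave 0.21 for CLP markers and 2 genes past the threshold over the whole array, both higher in CLP_RAGhigh (Gpat3 and Pou2af1), and the replicate block gave 1 B-lineage gene (Vpreb1). All 3 names were taken after the values were seen. The cause of these shifts was not tested where fewer arrays or genes do not show it. The same numbers do not mark shared animals in the labels, so the block pairs arrays by number only.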

Other observations

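Some neutrophil genes stood apart on 1 array. S100a9 read 7.94 and 7.83 in CLP_RAGhigh and 8.44 and 3.79 in CLP_RAGlow. Ngp, chosen after its values were seen, read 9.01 and 9.72 against 10.38 and 3.80. CLP_RAGlow replicate 2 was the low array for both. Ltf, also chosen after its values were seen, was lowest on that array too, at 6.46 and 5.77 against 7.97 and 3.87. Elane, Prtn3 and Mpo did not share this low reading. Elane and Prtn3 had differences of 0.41 ± 0.30 and -1.05 ± 0.84 (SE, n = 2 per group). Their CLP_RAGlow values were 3.91 and 4.01, and 7.32 and 6.70. Mpo, which marks earlier myeloid cells, had a difference of 0.03 ± 0.18.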
